A study of Saccharomyces cerevisiae with 9 samples.

Results

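The transcripts examined here encode 10 yeast regulators of ribosome gene transcription, namely the activators SFP1 (YLR403W), IFH1 (YLR223C), FHL1 (YPR104C), RAP1 (YNL216W) and HMO1 (YDR174W), the repressors CRF1 (YDR223W), STB3 (YDR169C), DOT6 (YER088C) and TOD6 (YBL054W), and the kinase SCH9 (YHR205W). They were taken by gene name from a table of 6868 features, and all 10 were matched through their systematic names. Their response to NaCl was measured in 3 strains of Saccharomyces cerevisiae on 9 two-color tiled arrays, 3 per strain. All strains lack the endogenous gene for Rpb1, the largest subunit of RNA polymerase II, and express Rpb1 from a plasmid. The wild-type strain (labelled CTD14) carries a C-terminal domain of unmutated heptad repeats. The S2A (CTD2A) and S5A (CTD5A) strains carry chimeric domains in which a block of repeats with alanine in place of serine 2 or serine 5 precedes wild-type repeats, so both mutants still have phosphorylatable repeats. The domains differ in length, and those of the mutants hold fewer wild-type repeats than that of the wild-type strain. Cells were grown in rich YPD medium, and each array set RNA taken 30 min after addition of 0.7 M NaCl against RNA of that strain's unstressed culture.

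Ribosomes take up a large part of the transcription of a growing yeast cell, and the genes that build them fall in 2 groups that are both repressed under stress. At ribosomal protein (RP) promoters, Rap1 and the forkhead protein Fhl1 sit on DNA, Hmo1 joins them at many of these promoters, and Ifh1 is the coactivator that Fhl1 recruits. Crf1, the paralog of Ifh1, can take its place on Fhl1 as a corepressor. At ribosome biogenesis (RiBi) promoters, the Myb-like paralogs Dot6 and Tod6 and the repressor Stb3 bind their own motifs and bring in the Rpd3L histone deacetylase. Sfp1 activates both groups, and Sch9, a kinase under the growth regulator TORC1, phosphorylates Dot6, Tod6 and Stb3 and thereby keeps them from repressing. Most of this control acts on the proteins, by phosphorylation and nuclear transport, whereas the arrays measured only transcript abundance.

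Each value below is a log2 ratio of the salt-treated over the unstressed culture, so that 1 unit is a change by a factor of 2 and a negative value is a fall. Each array had been centred, with medians between -0.00135 and -0.00011, so a change common to all transcripts is not visible. Arrays were compared across genes, and the correlation between any pair lay between 0.786 and 0.966. The 10 stress genes chosen to check the direction of the ratio, such as HSP12 and CTT1, were above 0 in all 88 of their values. In these bulk cultures, less RNA per cell and fewer cells that carry a transcript cannot be told apart. Of the 10 regulators, 9 had a value on all 9 arrays and were tested in limma as part of the 5645 complete features. CRF1 had no value on the first S2A array, and its tests come from a fit of the 6254 features that had at least 2 values per strain. The adjusted p-values are Benjamini-Hochberg values over all features of the fit, with a threshold of 0.05 for the NaCl response and of 0.025 for a difference between strains.

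In wild-type cells the regulators did not move together. CRF1, STB3 and SFP1 rose, TOD6, IFH1, DOT6, SCH9, FHL1 and RAP1 fell, and HMO1 did not pass the test. Of the 9 regulators in the complete fit, 8 were called, 2 higher and 6 lower. NaCl changed 70.6% of all complete features in wild-type (32.3% higher and 38.3% lower), so the share of regulators called is not far from that of the genome. The median over the 9 was -0.67, against -0.062 over all features. The counts were the same in S2A, where 68.7% of all features were called (31.6% higher and 37.1% lower). In S5A, where 63.1% of features were called (28.9% higher and 34.2% lower), 8 of the 9 were again called, with HMO1 among them and FHL1 not.

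**Figure D1:**
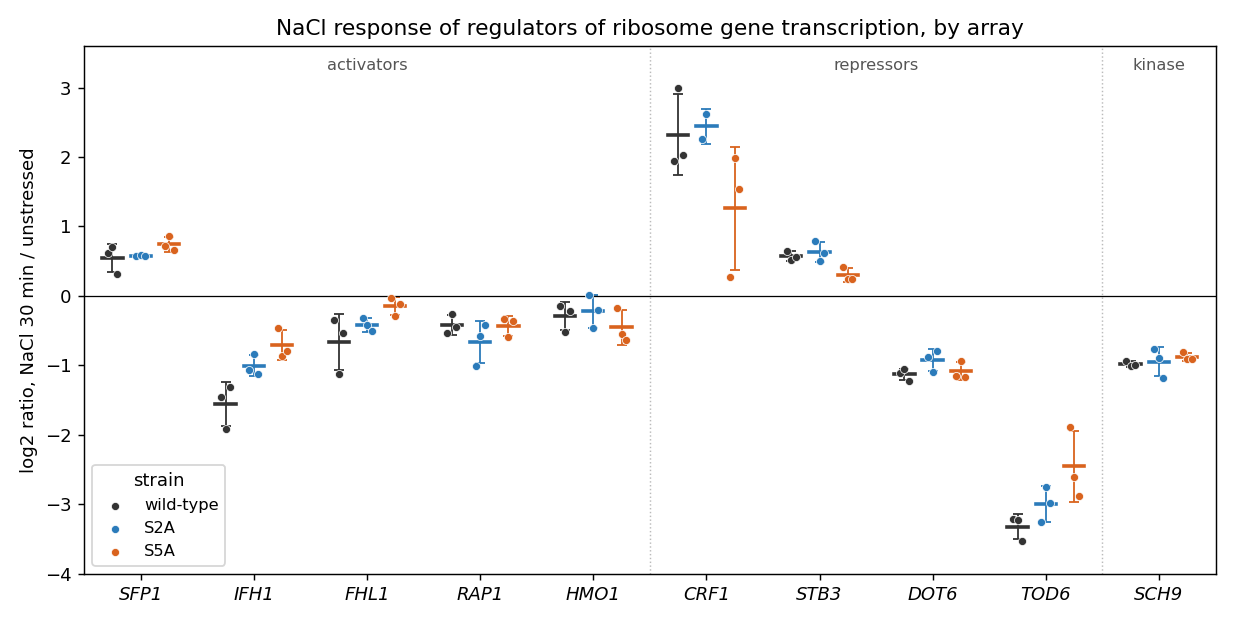
Log2 ratio of the NaCl-treated over the unstressed culture (y axis) for each regulator (x axis), with 1 point per array, a horizontal bar for the strain mean and a vertical bar for 1 SD (3 arrays per strain, 2 for CRF1 in S2A). By strain mean, TOD6 lies lowest in all strains and CRF1 highest. The S5A points of IFH1, FHL1 and TOD6 lie closer to 0 than the wild-type points.

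TOD6, one of the paired RiBi repressors, fell furthest. Its log2 ratio was -3.21, -3.22 and -3.53 on the wild-type arrays, -3.25, -2.75 and -2.99 on the S2A arrays and -1.88, -2.60 and -2.88 on the S5A arrays. All S5A values lay above all wild-type values, whereas S2A overlapped both. The wild-type mean of -3.32 ± 0.18 (SD, n = 3) is a 10-fold fall and the 12th lowest of 5645 features (limma adjusted p = 9.77e-08). The means were -3.00 ± 0.25 in S2A, a 7.97-fold fall, and -2.45 ± 0.51 in S5A, a 5.48-fold fall. The S5A minus wild-type difference was 0.87 (95% interval 0.33 to 1.41) and missed the threshold (limma adjusted p = 0.0409). It was called with array weights (limma adjusted p = 0.00695) and Storey's q-value (0.0210). It was -0.078 after quantile normalization of the arrays, which alone of the 19 alternatives turned its direction.

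DOT6, the paralog that binds the same motif, fell about as much in every strain. The values were -1.11, -1.06 and -1.22 in wild-type, -0.87, -1.10 and -0.80 in S2A and -1.16, -0.93 and -1.17 in S5A, with all strains overlapping. The means were -1.13 ± 0.083, -0.92 ± 0.16 and -1.08 ± 0.13 (SD, n = 3), falls of 2.19-fold, 1.90-fold and 2.12-fold. S5A differed from wild-type by 0.045 (95% interval -0.26 to 0.35; limma adjusted p = 0.859), and it turned negative after scaling the arrays to one spread (-0.18) or quantile normalization (-0.30). Set side by side on each array, the TOD6 change minus the DOT6 change was -2.19 ± 0.11 in wild-type, -2.07 ± 0.38 in S2A and -1.37 ± 0.56 in S5A (SD, n = 3). The repressor paralogs thus fell by unequal amounts on all 9 arrays, and the gap was smallest on the first S5A array, at -0.73.

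STB3, which represses RiBi genes through a different promoter motif, rose modestly. It stood at 0.65, 0.52 and 0.56 in wild-type, at 0.79, 0.50 and 0.61 in S2A and at 0.42, 0.24 and 0.25 in S5A. Every S5A array lay below every array of the other strains. The means were 0.58 ± 0.069, 0.63 ± 0.15 and 0.30 ± 0.10 (SD, n = 3), rises of 1.49-fold, 1.55-fold and 1.23-fold that all passed the test (limma adjusted p = 0.000277, 0.000144 and 0.0159). The S5A call was lost without S5A replicate 1 (limma adjusted p = 0.0987). Between S5A and wild-type the difference was -0.27 (95% interval -0.57 to 0.021; limma adjusted p = 0.187), and between S5A and S2A it was -0.33 (-0.62 to -0.036; 0.140).

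The RP coactivator IFH1 and its paralog, the corepressor CRF1, moved in opposite directions. IFH1 measured -1.45, -1.92 and -1.31 in wild-type, -1.06, -0.84 and -1.12 in S2A and -0.46, -0.87 and -0.79 in S5A. The wild-type arrays lay below all arrays of both mutants, while S2A and S5A overlapped. Its mean fall was -1.56 ± 0.32 in wild-type (2.95-fold), -1.01 ± 0.15 in S2A (2.01-fold) and -0.71 ± 0.22 in S5A (1.64-fold; SD, n = 3). The S5A minus wild-type difference of 0.85 (standard error 0.19) was the only one among the 9 regulators past the threshold (limma adjusted p = 0.0177). It stayed positive, between 0.59 and 0.97, under all alternatives tried, but 11 of 19 took its adjusted p above 0.025. Among these were scaling to one spread (0.0353), quantile normalization (0.0557) and leaving out wild-type replicate 1 (0.0251), 2 (0.0435) or 3 (0.0323), S2A replicate 3 (0.0251), or S5A replicate 1 (0.0768), 2 (0.0330) or 3 (0.0418). The S2A minus wild-type difference was 0.55 (95% interval 0.14 to 0.97) and was not called (limma adjusted p = 0.569).

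CRF1 rose in every strain, with the widest spread of the 10 in wild-type and S5A. Its values were 1.94, 2.99 and 2.03 in wild-type, 2.27 and 2.62 on the 2 S2A arrays that measured it, and 0.27, 1.98 and 1.54 in S5A. S5A lay below S2A and overlapped wild-type, and its first array stood far below the other values. The wild-type mean of 2.32 ± 0.58 (SD, n = 3) is a 5.01-fold rise and the 188th highest of 6254 features (limma adjusted p = 0.000224). In S5A the mean was 1.26 ± 0.89, a 2.40-fold rise (limma adjusted p = 0.00820), which was 1.76 without S5A replicate 1 and lost its call, at 0.91, without S5A replicate 2 (0.0610). A difference of -1.06 between S5A and wild-type was not called (95% interval -2.08 to -0.041; limma adjusted p = 0.156), and it was -0.57 without S5A replicate 1. On each array the CRF1 change exceeded the IFH1 change, by 3.88 ± 0.89 in wild-type (n = 3), 3.42 ± 0.45 in S2A (n = 2) and 1.97 ± 1.10 in S5A (SD, n = 3), with 0.74 on the first S5A array.

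FHL1, the DNA-bound partner that both paralogs share, fell less than IFH1. It measured -0.34, -1.12 and -0.54 in wild-type, -0.32, -0.42 and -0.51 in S2A and -0.033, -0.29 and -0.11 in S5A. All S5A values were closer to 0 than those of the other strains, and wild-type replicate 2 was the lowest of the 9. The mean fell by 0.67 ± 0.41 on the log2 scale in wild-type (limma adjusted p = 0.00132) and fell by 0.42 ± 0.098 in S2A (0.0192). In S5A it was -0.14 ± 0.13 (SD, n = 3) and was not called (0.371). Without wild-type replicate 2 the wild-type mean was -0.44, and the S2A call was lost without S2A replicate 2 (limma adjusted p = 0.0678) or 3 (0.0901). S5A exceeded wild-type by 0.52 (95% interval 0.093 to 0.95; limma adjusted p = 0.0952). It was 0.30 without wild-type replicate 2.

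RAP1, which binds telomeres and the promoters of many glycolytic genes besides RP genes, fell slightly. It stood at -0.54, -0.27 and -0.45 in wild-type, -1.01, -0.57 and -0.41 in S2A and -0.34, -0.60 and -0.37 in S5A, and no strain stood apart. The means of -0.42 ± 0.14, -0.66 ± 0.31 and -0.43 ± 0.14 (SD, n = 3) all passed the test (limma adjusted p = 0.0109, 0.000676 and 0.0105). The wild-type call was lost without wild-type replicate 1 (limma adjusted p = 0.0646) or 3 (0.0521), and the S5A call without S5A replicate 2 (0.0825). Between S5A and wild-type the difference was -0.016 (95% interval -0.40 to 0.37; limma adjusted p = 0.963).

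HMO1, an HMG-box protein of the ribosomal DNA and of many RP promoters, changed little. Its values were -0.14, -0.51 and -0.21 in wild-type, 0.0080, -0.47 and -0.21 in S2A and -0.17, -0.55 and -0.64 in S5A, with all strains overlapping. The means were -0.29 ± 0.20 in wild-type (limma adjusted p = 0.0653) and -0.22 ± 0.24 in S2A (0.148), neither of them called. The wild-type fall was called when replicate number was a block in the fit (limma adjusted p = 0.0183). The S5A mean of -0.45 ± 0.25 (SD, n = 3) passed (limma adjusted p = 0.0109), but not when S5A replicate 2 (0.0680) or 3 (0.0863) was left out. The strains were not shown to differ, with an S5A minus wild-type difference of -0.16 (95% interval -0.57 to 0.24; limma adjusted p = 0.579) that ranged from -0.30 to -0.068 with an array left out. The wild-type mean was -0.18 without wild-type replicate 2, and the S2A mean -0.10 without S2A replicate 2.

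SFP1, the zinc-finger activator of both target groups, was the activator that rose. It measured 0.62, 0.70 and 0.32 in wild-type, 0.58, 0.60 and 0.57 in S2A and 0.71, 0.86 and 0.65 in S5A. All S5A arrays lay above all S2A arrays and overlapped wild-type. The means of 0.54 ± 0.20, 0.58 ± 0.014 and 0.74 ± 0.10 (SD, n = 3) correspond to rises of 1.46-fold, 1.5-fold and 1.67-fold (limma adjusted p = 0.000595, 0.000385 and 9.99e-05). The S5A minus wild-type difference was 0.20 (95% interval -0.11 to 0.51; limma adjusted p = 0.362).

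The kinase SCH9 fell by nearly the same amount in all strains. It was -0.94, -1.01 and -0.99 in wild-type, -0.77, -0.89 and -1.18 in S2A and -0.81, -0.91 and -0.90 in S5A. The S5A values were all slightly above those of wild-type, and S2A spanned both. The means were -0.98 ± 0.040, -0.95 ± 0.21 and -0.88 ± 0.055 (SD, n = 3), falls of 1.97-fold, 1.93-fold and 1.84-fold. The S5A minus wild-type difference was 0.10 (95% interval -0.20 to 0.41; limma adjusted p = 0.648), and it was -0.085 after scaling to one spread and -0.12 after quantile normalization.

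Across the 9 regulators, limma called 1 different between S5A and wild-type, IFH1, where 7.95% of all features were called (4.13% higher and 3.83% lower). At an unadjusted p below 0.05 there were 3, IFH1, TOD6 and FHL1, beside 31.6% of all features. With the replicate number as a block, 762 in place of 449 features were called, and still 1 regulator. The S5A arrays did not overlap the wild-type arrays for 5 of the 9 (IFH1, FHL1, TOD6 and SCH9 higher, STB3 lower), beside 37.7% of all features (19.1% higher and 18.5% lower). Between S2A and wild-type limma called 0 of the 9 and 0% of all features, with IFH1 alone at an unadjusted p below 0.05, beside 8.49% of all features. IFH1 was also the 1 of 9 whose S2A and wild-type arrays did not overlap, beside 12.5% of all features (6.24% higher and 6.25% lower). Between S5A and S2A limma called 0 of the 9, where 3.31% of all features were called (1.51% higher and 1.81% lower), and STB3 alone had an unadjusted p below 0.05, beside 27.3% of all features. With the block, 315 in place of 187 features were called. The arrays did not overlap for 3 of the 9 (SFP1, FHL1 and STB3), beside 37% of all features (18.7% higher and 18.2% lower). These shares do not set the regulators as a group apart from the genome. The comparisons share arrays and are therefore not independent of each other.

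**Figure D2:**
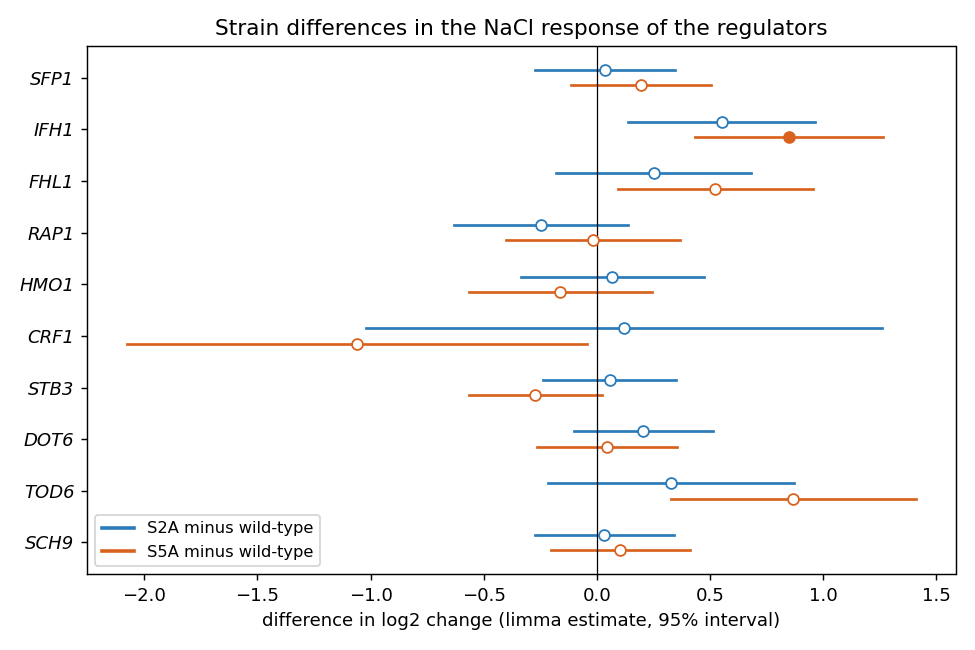
Difference in log2 NaCl response (x axis, limma estimate with its 95% interval) for each regulator (y axis), S2A minus wild-type in blue and S5A minus wild-type in orange. Only the filled point, IFH1 in S5A at 0.85, passed an adjusted p of 0.025. The direction of the S5A difference turned after quantile normalization for TOD6, DOT6 and SCH9.

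The S5A arrays had the narrowest distributions, and this moves with the differences above. The median absolute deviation of the log2 ratios was 0.672 to 0.701 on the S5A arrays, 0.792 to 0.927 on the wild-type arrays and 0.805 to 0.924 on the S2A arrays. Across all complete features the slope of the S5A means on the wild-type means was 0.725, and 77% of the features called in wild-type had a smaller mean change in S5A. Among the regulators, 7 of 10 had a smaller mean change in S5A, and SFP1, RAP1 and HMO1 had a larger one. As a share of the wild-type mean, S5A kept 0.455 for IFH1, 0.527 for STB3, 0.544 for CRF1 and 0.739 for TOD6, but 0.894 for SCH9 and 0.960 for DOT6. Whether the lower spread of the S5A arrays comes from the strain or from labelling and hybridization cannot be told apart. In S2A the slope was 0.939, and 57.5% of the features called in wild-type had a smaller mean change.

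Most targets of these regulators were called lower in each strain. The median change of the 136 RP genes was -1.01 in wild-type, -0.83 in S2A and -0.46 in S5A, and 129, 121 and 78 of them were called lower. In S5A 56 of them were not called, and 2 were called higher. For 108 RiBi genes it was -2.37, -2.21 and -1.25, with 107, 108 and 105 called lower. Of the regulators, TOD6 lay below the RiBi median in every strain, and the other 9 lay above it. Between S5A and wild-type, 74 of the 108 RiBi genes were called higher, with a median difference of 1.08. Of the 136 RP genes, 9 were called higher, with a median difference of 0.56. Among 5317 named features, the 3 whose values over the 9 arrays were closest to those of TOD6 were ALB1, ARX1 and NOP2, with root mean square differences of 0.20, 0.22 and 0.30 log2 units. Alb1 and Arx1 bind pre-60S particles during export, and Nop2 methylates ribosomal RNA. For CRF1, over its 8 arrays and 5482 features, they were YOL024W (0.38), PIC2 (0.41), a mitochondrial carrier gene, and RRT8 (0.43).

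**Figure D3:**
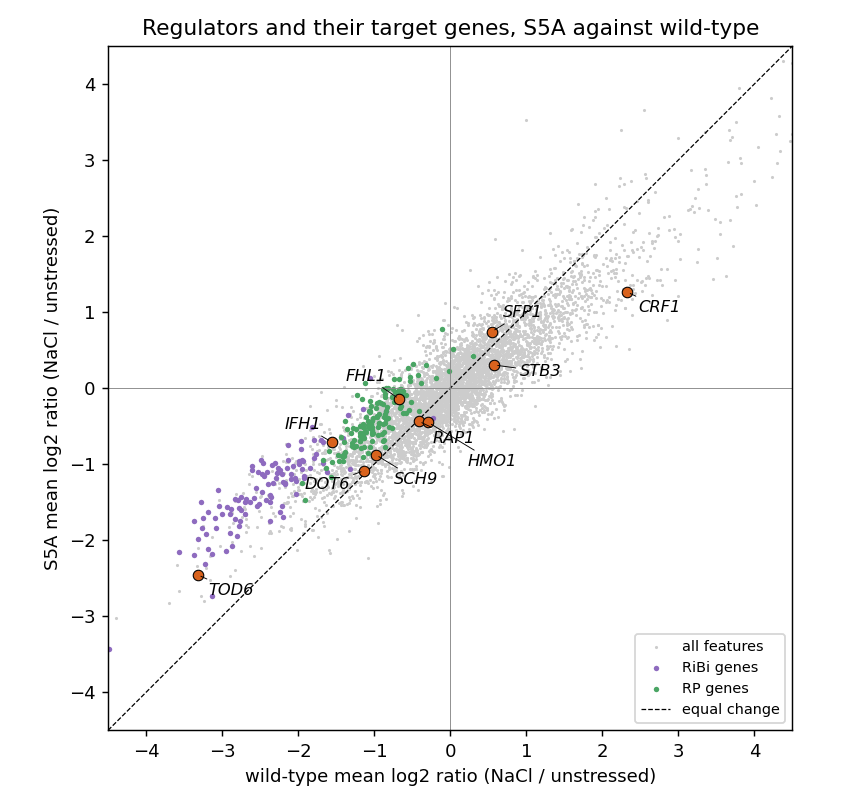
Mean log2 ratio in S5A (y axis) against wild-type (x axis) for all complete features (grey), RiBi genes (purple), RP genes (green) and the 10 regulators (orange), with the line of equal change dashed and 29 features beyond 4.5 units not drawn. TOD6 lies among the RiBi genes, whereas DOT6, SCH9, RAP1 and HMO1 lie near the dashed line.

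Genes that act with these regulators were followed in 6 lists with 49 genes in all, every one of them with a complete set of values. In wild-type 14 rose and 14 fell, together 57.1%, beside 70.6% of all features. Among 9 genes of kinases and of a regulatory kinase subunit beside SCH9, 6 rose and 1 fell in wild-type, with a median of 0.47. In S5A 4 rose and 1 fell, with a median of 0.22. YAK1, which encodes a kinase that opposes growth, was at 1.92, 2.12 and 1.64 in wild-type, 2.35, 1.99 and 1.97 in S2A and 1.76, 1.93 and 1.56 in S5A. It rose in all strains, and wild-type overlapped both mutants. The S5A and wild-type means differed by -0.14 (95% interval -0.53 to 0.25; limma adjusted p = 0.616). YPK3, the kinase of ribosomal protein S6, was the gene of this list that fell, by 0.58 on the log2 scale in wild-type.

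Among 13 genes, those of TORC1, its EGO regulators and the attached phosphatase arm together with MRS6, 4 rose and 4 fell in wild-type. The median was -0.040. TAP42, a regulator of type 2A phosphatases, rose by 0.81, and MRS6, whose product binds Sfp1, fell by 0.98 on the log2 scale. In the CURI complex, in which Utp22, Rrp7 and casein kinase 2 hold Ifh1, 4 of 6 genes fell in wild-type and none rose. UTP22 fell the most, by 1.09 on the log2 scale in wild-type. RRP7 measured -0.51, -0.49 and -0.23 in wild-type, -0.25, 0.041 and 0.081 in S2A and 0.32, 0.23 and 0.39 in S5A. It thus fell on every wild-type array and rose on every S5A array, with a difference of 0.72 (standard error 0.14; limma adjusted p = 0.0124). That call was lost without wild-type replicate 1 (limma adjusted p = 0.0276), 2 (0.0339) or 3 (0.0287) and without S5A replicate 1 (0.0507), 2 (0.0316) or 3 (0.0430). The difference stayed between 0.67 and 0.81 with an array left out, and its lowest value under the other alternatives was 0.59.

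The 12 genes of the Rpd3L complex, which Dot6, Tod6 and Stb3 bring to RiBi promoters, moved both ways, with 2 higher and 2 lower in wild-type, 5 higher and 2 lower in S2A and 4 higher and 3 lower in S5A. RXT3 rose by 1.04, and ASH1, a daughter-cell repressor that belongs to the complex, fell by 1.51 on the log2 scale. Of 7 other promoter factors, 1 rose and 2 fell in wild-type. ESA1, the catalytic subunit of the NuA4 acetyltransferase, rose by 0.53. EPL1, another NuA4 subunit, stood at -0.24, -0.67 and -0.20 in wild-type, -0.28, -0.066 and 0.031 in S2A and 0.32, 0.20 and 0.31 in S5A. All its wild-type values were below 0 and all its S5A values above, and the difference of 0.64 missed the threshold (standard error 0.16; limma adjusted p = 0.0275). It was called with the replicate number as a block (limma adjusted p = 0.0198), after scaling to one spread (0.0230), with protein-coding features (0.0203), array weights (0.00925) and Storey's q-value (0.0141). Its wild-type fall of -0.37 (limma adjusted p = 0.0139) was -0.22 and no longer called without wild-type replicate 2 (0.111), and its call was lost with only the wild-type arrays in the fit (0.0607). MAF1, the repressor of RNA polymerase III, rose by 0.82 in wild-type, and RRN3, an initiation factor of RNA polymerase I, fell by 0.24 on the log2 scale. The RRN3 call (limma adjusted p = 0.0319) was lost without wild-type replicate 1 (0.104) or 3 (0.141), after scaling to one spread (0.104), with only the wild-type arrays in the fit (0.123) and at a threshold of 0.025.

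In S5A against wild-type, limma called 1 of these 49 genes (2.04%), RRP7, beside 7.95% of all features. In S2A against wild-type it called 0 of 49, beside 0% of all features.

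**Figure D4:**
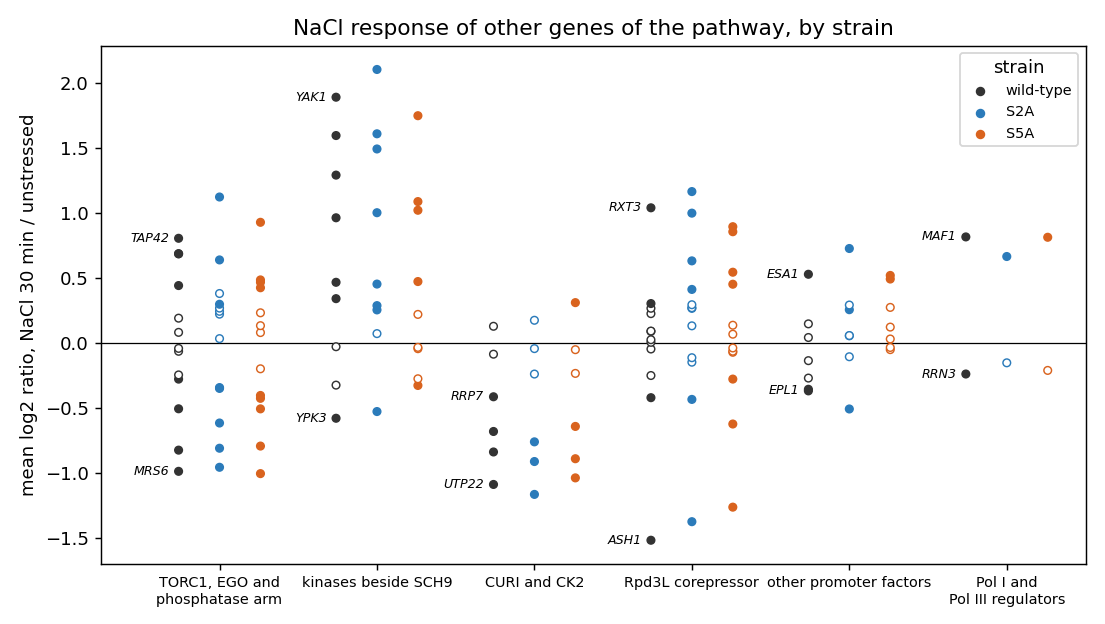
Mean log2 ratio (y axis) of each gene in 6 lists of pathway genes (x axis) in wild-type, S2A and S5A, filled where the NaCl response passed an adjusted p of 0.05. The genes of the list of kinases beside SCH9 lie mostly above 0, and those of CURI and casein kinase 2 mostly below, while YAK1 stands highest and ASH1 lowest in wild-type.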

How the data were processed

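Total RNA was isolated with hot phenol and labelled as amino-allyl cDNA, and per the labels the salt-treated culture carried the same dye on all 9 arrays, so a dye effect does not cancel within a strain. The deposited values are log2 ratios that the authors normalized before deposit; the step that summarised tiled probes to features and the genome build are not given in the sources used here, so no coordinates are printed. Columns were assigned to samples by title. Features were named through RefSeq locus tags (5984 matched). One mean per strain was fitted with limma 3.58.1 in R 4.3.3 (lmFit, contrasts.fit, eBayes), without a replicate block. The study calls the strains paired, and the labels number the replicates but do not say what a number marks. Deviations from the strain means correlated at 0.149 to 0.388 in the 3 same-numbered pairs of wild-type and S2A and at 0.166 to 0.231 in those of wild-type and S5A, so the numbers were taken to pair these strains. The same-numbered pairs of S2A and S5A correlated at 0.062 to 0.129. The intervals and p-values printed for strain differences do not use the pairing, except where a block is named. Where replicates are technical, p-values cover only that spread. Precision is limited by the number of arrays.

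The members, gene lists and tests were chosen with earlier results of these data known. Pathway genes were named if called between strains, or if they had the largest called rise or fall of their list in wild-type. A gene of the kinase list is not reported here and was left out of the counts of that list. The nearest features were sought for the members with the highest and lowest wild-type mean. The alternatives were median absolute deviation scaling, quantile normalization, other feature sets (at least 2 values per strain, or the 5309 protein-coding features), a fit of only the strains compared, array weights, robust eBayes, a replicate block, Storey's q-value, exchanged thresholds and each array left out. In simulated data for S5A minus wild-type, over 5645 features, 65.0% of 200 features shifted by 1 log2 unit were recovered, and 1.94% of calls were false. The simulated noise was independent between arrays and had the same spread in all strains. That was not so for the measured arrays, so these shares need not hold for them.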

Additional observations from a re-analysis of the deposited data

Results flagged for a closer look

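The NaCl response of IFH1 and RRP7 differed between strains by limma's test of the difference itself. The fall of IFH1 was smaller in S5A, by 0.85. RRP7 differed between S5A and wild-type by 0.72, and its arrays in these strains lay on opposite sides of 0. The median difference of the 108 RiBi genes was larger, at 1.08, and 74 of them were called higher. The share of all features with arrays on opposite sides of 0 was not counted. EPL1 also lay on opposite sides of 0 on all wild-type and all S5A arrays, and its difference of 0.64 missed the threshold (limma adjusted p = 0.0275). The spread of the S5A arrays was lower than that of the other strains, which moves with the smaller fall of IFH1. IFH1 lost its call after scaling to one spread and RRP7 did not, while EPL1 gained one (0.67; limma adjusted p = 0.0230). Of the 19 alternatives, 11 took the call from IFH1 and 6 took it from RRP7. Those 6 each left out an array of wild-type or S5A. No cause was tested.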

How the results depend on the processing

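All 10 regulators kept the direction of their NaCl response in each strain under all 19 alternatives. The counts of regulators called for the NaCl response stayed within 1.5 times, at 7 to 9 in wild-type, 7 to 9 in S2A and 6 to 8 in S5A. For S5A minus wild-type, 0 of the 9 regulators were called after scaling to one spread, after quantile normalization, with at least 2 values per strain, and with only the arrays compared. There were 2, IFH1 and TOD6, with array weights, Storey's q-value and exchanged thresholds, and 0 to 1 with an array left out. Over all features the 449 calls became 282 after scaling, 182 after quantile normalization, 298 with only the arrays compared, 1284 with array weights, 789 with Storey's q-value, 798 with exchanged thresholds, 762 with a replicate block and 17 to 460 with an array left out. The lowest count, 17, came without S5A replicate 1, and the other low counts were 84 (wild-type replicate 3), 154 (S5A replicate 3), 194 (wild-type replicate 2) and 195 (S5A replicate 2). The split of 233 higher and 216 lower became 72 and 110 after quantile normalization. For S5A minus S2A the 187 calls became 53 after scaling, 70 after quantile normalization, 88 with at least 2 values per strain, 61 with only the arrays compared, 423 with array weights, 414 with Storey's q-value, 464 with exchanged thresholds, 315 with a replicate block and 0 to 275 with an array left out; they fell to 0 without S2A replicate 1, S2A replicate 3 or S5A replicate 1. The split of 85 and 102 became 31 and 22 after scaling.

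Some differences that had not been called changed sign. After scaling, S5A minus wild-type was -0.18 for DOT6 and -0.085 for SCH9, and S5A minus S2A was -0.012 for TOD6 and -0.094 for SCH9. After quantile normalization S5A minus wild-type was -0.30 for DOT6, -0.078 for TOD6 and -0.12 for SCH9, and S5A minus S2A was -0.29 for TOD6 and -0.13 for SCH9. With array weights S2A minus wild-type was -0.054 for HMO1 and -0.013 for SCH9. With the replicate block S2A minus wild-type was -0.22 for CRF1. With an array left out, S2A minus wild-type ranged from -0.076 to 0.11 for SFP1, -0.047 to 0.19 for HMO1, -0.070 to 0.46 for CRF1, -0.021 to 0.12 for STB3 and -0.055 to 0.15 for SCH9. S5A minus wild-type ranged from -0.076 to 0.065 for RAP1 and -0.032 to 0.086 for DOT6, and S5A minus S2A from -0.046 to 0.16 for SCH9. The cause of these changes was not tested.

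The replicate block changed no other call of a regulator or named gene than those of HMO1 in wild-type (limma adjusted p = 0.0183) and EPL1 between S5A and wild-type (0.0198). Every array correlated best with the arrays of its own number. Array weights (0.0378) and Storey's q-value (0.0118) called that HMO1 response too, and both called it in S2A (0.0449 and 0.0273).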
